A study of Mus musculus with 2 samples.

Results

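The nuclear genes for the subunits of mitochondrial complex I were described in 2 single-cell RNA libraries of mouse tumour cells. The set holds the genes whose symbols begin with Ndufa, Ndufb, Ndufc, Ndufs or Ndufv followed by a digit, without the Ndufaf assembly factors and without names in -ps, and with at least 50 UMIs (unique molecular identifiers, each standing for 1 captured transcript) over both libraries. It came to 37 of the 32285 gene models, from Ndufa4l2 with 185 UMIs to Ndufa6 with 73012. Ndufab1, which encodes an acyl carrier protein of the complex, and Ndufb1-ps fall outside the naming rule and are not members. The 7 subunits encoded by mitochondrial DNA, mt-Nd1 to mt-Nd6 and mt-Nd4l, were set beside them.

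Both libraries came from mouse tumours that were digested with collagenase D and DNase I and enriched with magnetic beads for CD45, a surface protein of white blood cells, to a stated purity over 95%. One library is of the group CEP, named for cepharanthine, an alkaloid of Stephania plants, and the other of the group Vehicle, which is spelled Vehide in its label. The labels state 5 animals per group, but cells cannot be assigned to animals, so each group is 1 library. The tumour model, the strain, age and sex of the mice, and the dose, route and duration of treatment are not given in the sources used here. With 1 library per group there is no replicate and no test: a difference between CEP and Vehicle cannot be told apart from a difference between the animals or the handling of the 2 libraries, and all intervals are 95% intervals of counting error only.

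Complex I, or NADH:ubiquinone oxidoreductase, is the entry point of the respiratory chain: it takes electrons from NADH, passes them along a flavin and a chain of iron-sulfur clusters to ubiquinone, and pumps protons across the inner mitochondrial membrane. Its N module binds NADH, its Q module reduces ubiquinone and its membrane arm pumps. The membrane core is built from the mt-Nd products, and the core of the N and Q modules and all accessory subunits are made from nuclear genes, so the complex needs both genomes. Neutrophils are known to rely largely on glycolysis and to hold few mitochondria, while macrophages, T cells and tumour cells use respiration to degrees that depend on their state.

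The members lie on 15 chromosomes, 2 of them on X, and 14 of the 37 overlap another counted gene on the opposite strand. Ndufa13 also overlaps Yjefn3 on its own strand, so its counts are less certain. RefSeq promoter sequences (GRCm38.p6, 250 bases before to 50 after the start) were matched for 32 members, and 3 are shown because they show the motif content of the set and a member without it. Ndufs6, an N-module subunit (chr13:73328433-73328732 on the minus strand), holds both an NRF1 and a YY1 motif. Ndufs8, a Q-module iron-sulfur subunit (chr19:3912725-3913024 on the minus strand), holds an ETS motif on the opposite strand. Ndufa12, an N-module subunit with the largest CEP over Vehicle ratio in neutrophils under the wider of 2 gates, though with an interval that held 0 under the stricter one (chr10:94198785-94199084 on the plus strand), holds none of the 3. The gene annotation used for the overlaps starts Ndufa12 at 94198720, before this window, so bases upstream of that start were not searched. Motif letters are in capitals.
Ndufs6: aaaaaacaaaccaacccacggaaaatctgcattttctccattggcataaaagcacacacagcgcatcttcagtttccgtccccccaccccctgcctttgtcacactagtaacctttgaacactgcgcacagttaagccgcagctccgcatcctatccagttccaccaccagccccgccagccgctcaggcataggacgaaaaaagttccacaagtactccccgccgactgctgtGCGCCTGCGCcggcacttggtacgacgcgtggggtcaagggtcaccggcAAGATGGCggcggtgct
Ndufs8: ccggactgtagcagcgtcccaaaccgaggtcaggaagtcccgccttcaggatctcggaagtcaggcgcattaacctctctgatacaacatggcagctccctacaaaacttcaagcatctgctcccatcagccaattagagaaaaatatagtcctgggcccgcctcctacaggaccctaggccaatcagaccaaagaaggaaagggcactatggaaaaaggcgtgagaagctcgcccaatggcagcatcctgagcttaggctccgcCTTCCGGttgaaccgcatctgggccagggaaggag
Ndufa12: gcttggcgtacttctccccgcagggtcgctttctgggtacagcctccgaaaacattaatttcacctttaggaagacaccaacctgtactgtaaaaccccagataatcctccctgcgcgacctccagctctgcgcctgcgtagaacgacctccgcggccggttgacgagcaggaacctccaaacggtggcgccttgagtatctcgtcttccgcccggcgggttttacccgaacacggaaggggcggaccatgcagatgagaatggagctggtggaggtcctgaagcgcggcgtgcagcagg
The motifs searched, on both strands, were the palindromic motif of NRF1 (the first capitals in Ndufs6 are an instance), CCGGAAG for the ETS family that includes GABPA, and AAGATGGC for YY1, all 3 being regulators of respiratory chain genes. The NRF1 motif was in 8 of the 32 member promoters (25.0%) against 7.0% of 27025 promoters of the same length. The YY1 motif was in 7 (21.9%) against 3.19%, and the ETS motif in 4 (12.5%) against 9.93%. At least 1 of the 3 was in 18 members (56.2%) against 17.9%. A match describes letters in this window and is not evidence of binding.

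The CEP library held 88721774 UMIs in 9621 barcodes and the Vehicle library 81208647 in 9989, and 8842 and 9154 cells were kept. In these cells 4 classes were gated by the UMIs of a few genes, after barcodes with few genes, a high mitochondrial share or a high doublet score were removed. Macrophages (C1qa, C1qb and C1qc at 10 UMIs or more in sum) numbered 4162 in CEP and 4564 in Vehicle, neutrophils (Csf3r and Cxcr2 at 1 or more) 1652 and 2103, T cells (Cd3d, Cd3e and Cd3g at 2 or more) 170 and 258, and epithelial cells (Krt8 and Krt18 at 10 or more), which the CD45 enrichment did not remove, 780 and 111. Neutrophils and T cells also had to have under 3 C1q UMIs and epithelial cells under 10. The gates left 2115 and 2150 kept cells unassigned and placed 36 and 32 in more than 1 class, and 136 barcodes occurred in both libraries. Cells that also lay in another class held 13.7% of CEP and 5.58% of Vehicle neutrophil UMIs. They held 23.0% of CEP and 21.5% of Vehicle T cell UMIs. Median depth was 9737.5 and 10880 UMIs in macrophages but 1751 and 1840 in neutrophils, and 26785.5 and 26694 in epithelial cells. The 8 macrophage markers summed to 17609.5 and 17624 CPM in macrophages, against at most 1269 and 1110 in another class. The 8 epithelial markers summed to 2638 and 3500.1 CPM in epithelial cells, against at most 357 and 57.6. A level below is given as CPM, the UMIs of a gene per 1e+06 UMIs summed over the class, and a difference as the log2 ratio of CPM; levels of different genes are not compared, since transcript length and capture differ.

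The neutrophil and T cell gates also let in other cells. The 5 fibroblast and mural markers summed to 1518 CPM in gated CEP neutrophils and 10.9 in Vehicle neutrophils, and the 8 epithelial markers to 357 and 57.6. Among gated T cells the 8 neutrophil markers summed to 28884 and 42939.5 CPM. A stricter gate, added after these values were seen, asked neutrophils for S100a8 and S100a9 at 1% or more of the UMIs with under 3 keratin, under 3 collagen and under 2 Cd3 UMIs, and T cells for an S100 share under 1% with the same keratin and collagen limits. It removed 242 of the CEP and 324 of the Vehicle neutrophils, which held 31.9% and 22.1% of their UMIs, and 18 and 28 T cells. Fibroblast and mural markers then summed to 8.15 and 0.690 CPM in neutrophils and neutrophil markers to 638 and 565 in T cells. The stricter gate limits collagen UMIs in neutrophils and the share of S100a8 and S100a9 in T cells. These genes are among the markers summed, so the fall was set by the gate and is not a check of it. Sums and counts of neutrophils and T cells are given under both gates.

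Macrophages, T cells and epithelial cells carried nuclear complex I transcripts at similar summed levels, and neutrophils carried much less in both libraries. The members summed to 7831 CPM in CEP and 7809 CPM in Vehicle macrophages, and to 3698 CPM in CEP and 3212 CPM in Vehicle neutrophils. Relative to macrophages of the same library, the neutrophil sum had a ratio of 0.472 in CEP and 0.411 in Vehicle, and 0.313 and 0.326 under the stricter gate. All 36 measured members were lower in neutrophils than in macrophages in both libraries and under both gates. A member was measured here with at least 50 UMIs in neutrophils and macrophages of a library together. In stricter-gate CEP neutrophils alone some held fewer, such as Ndufa5 with 18 and Ndufs1 with 37. Ndufa4l2 was the 1 member not measured. At least 2-fold lower were 26 of 36 members in CEP, where 32.3% of all genes were lower by that much, and 30 in Vehicle, where 45.2% were. Under the stricter gate the counts were 33 and 32, beside 54.7% and 54.2% of all genes. The CEP macrophages held 43468646 UMIs and the stricter-gate CEP neutrophils 3068296. The minimum was set on both classes together, so it favours genes high in macrophages. The shares and medians over all genes thus depend on this minimum. The member median was -1.86 in both libraries against medians of -1.25 and -1.21 over all genes.

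Among the core subunits, the size of this difference varied. Ndufs1, the largest iron-sulfur subunit of the N module, was at 29.1 and 30.8 CPM in CEP and Vehicle macrophages and 12.1 and 13.3 in stricter-gate neutrophils, a log2 ratio of -1.25 and -1.20. Ndufs3, a Q-module subunit, was at 136 and 145 CPM in macrophages and 21.5 and 23.4 in neutrophils, ratios of -2.65 and -2.63. Ndufs8 had ratios of -2.75 and -2.82. Ndufv1, which binds NADH and flavin, Ndufv2, an iron-sulfur subunit of the N module, and Ndufs7, an iron-sulfur subunit of the Q module, lay between -1.98 and -1.72. Ndufs3 and Ndufs8 were thus further below macrophages than Ndufs1 in both libraries.

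The accessory subunits spread further. Ndufb9, a distal membrane-arm subunit of the LYR protein family, was the least lowered: 217 and 222 CPM in neutrophils against 324 and 320.4 in macrophages, ratios of -0.58 and -0.53. Ndufa7 of the N module (-0.79 and -0.72) and Ndufb7, a cysteine-rich subunit on the intermembrane face (-0.82 and -0.78), followed. Ndufa3 and Ndufb3, both membrane-arm subunits, completed the 5 least lowered under the wider gate. At the other end Ndufc2, a proximal membrane-arm subunit, stood at 21.2 and 21.1 CPM against 251 and 261 (-3.56 and -3.62), and Ndufa5, a Q-module accessory subunit, at 5.87 and 10.8 against 98.7 and 96.3 (-4.03 and -3.14). Ndufa9, which steadies the junction of the Q module with the membrane arm, and Ndufc1 were also among the 5 most lowered. The 2 libraries gave nearly the same order, as the plot against macrophages shows.

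**Figure D1:**
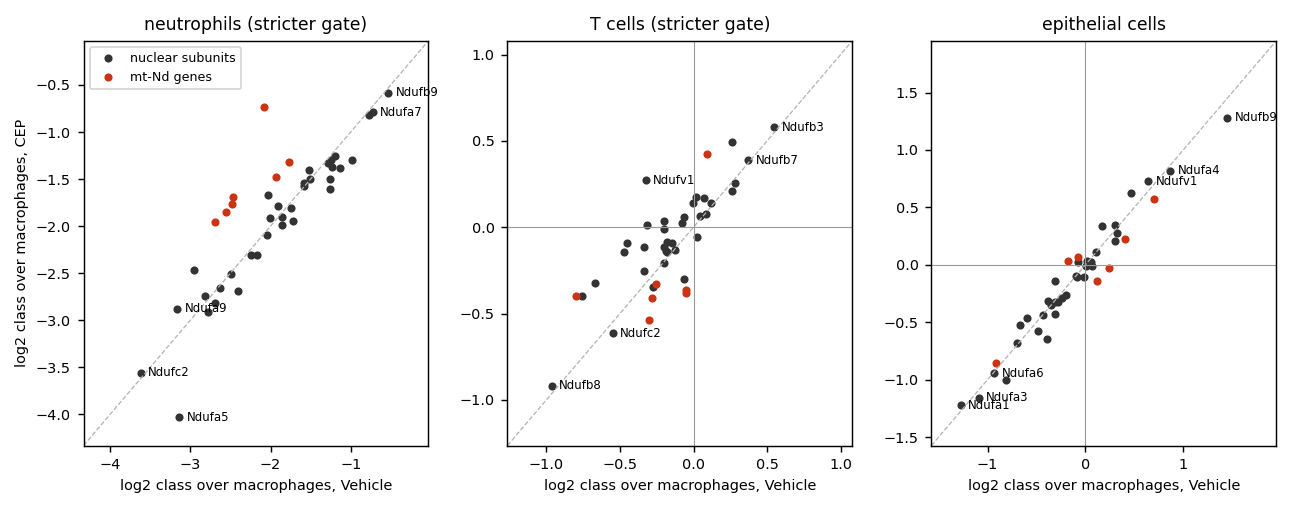
Level of 35 members (black) and each mt-Nd gene (red) in 3 classes relative to macrophages of the same library, Vehicle on the x axis and CEP on the y axis, both as log2 ratios of CPM; the dashed line marks equality. Nuclear subunits lie near the line and below 0 in neutrophils, while the 7 mt-Nd genes lie above the line there.

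Free RNA from macrophages was gauged by 8 macrophage genes, such as Apoe and Csf1r, whose sum in neutrophils was 0.0575 and 0.0454 of the macrophage sum and 0.0285 and 0.0214 under the stricter gate. The summed ratios of the members under the stricter gate were 0.313 and 0.326. Apoe made up most of the gauge, with 14976 of 17229.8 CPM in CEP macrophages. The median ratio of the 8 genes was 0.0530 and 0.0401 under the stricter gate. The part of free RNA in the summed member level was not tested. Single gauge genes reached 0.259 and 0.201 under the wider gate, and 0.160 and 0.128 under the stricter one. The members with the lowest neutrophil ratios, such as Ndufa5 and Ndufc2, lie between the summed and the highest single ratio of these genes, so at their level expression and free RNA cannot be told apart.

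T cells and epithelial cells stayed close to macrophages in the sum but not gene by gene. In T cells the summed ratio was -0.15 and -0.32 (log2), and -0.036 and -0.12 under the stricter gate. At least 2-fold lower were 0 members in CEP and 1, Ndufb8, in Vehicle, beside 15.3% and 16.6% of all genes; none was 2-fold higher, beside 17% and 17.8%. Ndufb8, a distal membrane-arm subunit, was at 229.6 and 229 CPM in stricter-gate T cells and 436 and 449 in macrophages, and Ndufb3, another distal subunit, at 168 and 169.7 in T cells against 113 and 116. Under the stricter gate 0 members were past 2-fold, beside 16.8% and 19.6% of all genes higher and 18.2% and 18.6% lower in CEP and Vehicle. Ndufb3, Ndufb7, Ndufa13, Ndufb11 and Ndufs1 had the highest T cell ratios, and Ndufb8, Ndufc2, Ndufa9 and Ndufc1 were among the lowest.

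In epithelial cells the sum was -0.083 and -0.043 (log2) from macrophages. Ndufb9 alone was at least 2-fold higher, at 789 and 876 CPM against 324 and 320.4, beside 25.8% and 24.3% of all genes. Ndufa4, first described as a complex I subunit and since assigned to complex IV, was at 631 and 659 CPM against 358 and 361. Ndufv1 (0.73 and 0.64), Ndufa12 (0.63 and 0.46) and Ndufa10 (0.35 and 0.30) were the next highest. At least 2-fold lower were Ndufa1, Ndufa3 and Ndufv3 in CEP and the first 2 of them in Vehicle, beside 19.9% and 21.6% of all genes. Ndufa1, a small membrane-anchored subunit needed for assembly, was at 113 and 92.4 CPM against 262 and 224, Ndufa3 at 98.8 and 92.8 against 220.4 and 198, and Ndufa6 at 254 and 254 against 490.0 and 485. Ndufv3, an N-module subunit, and Ndufa2 completed the lowest 5. The sum thus hid members that differed in opposite directions in both libraries.

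**Figure D2:**
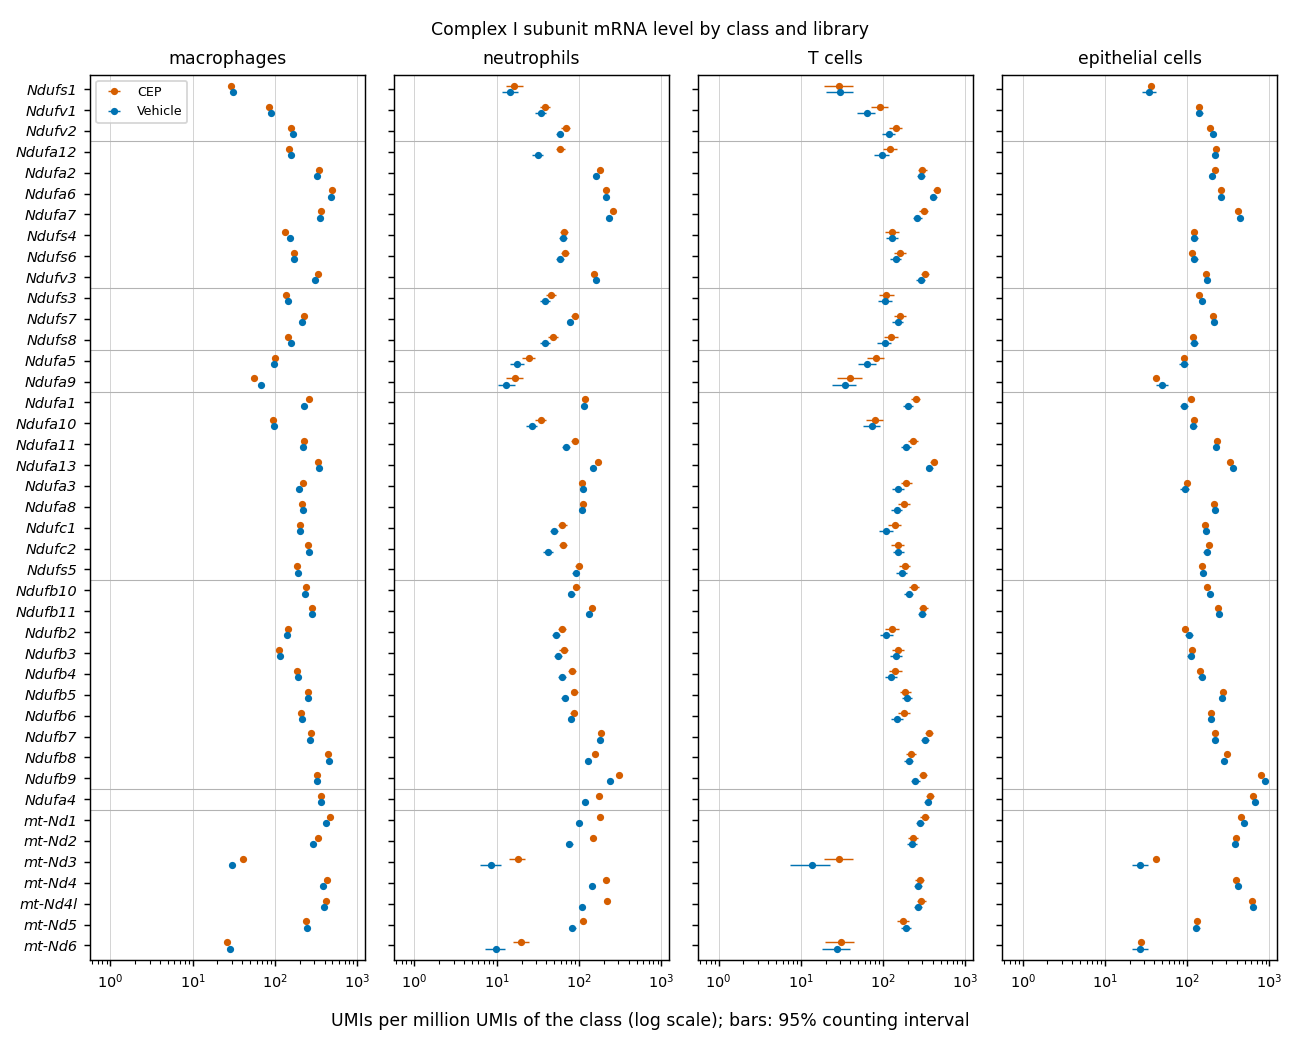
CPM (log scale) of 35 nuclear members, grouped by module, and of the 7 mt-Nd genes in each class, CEP in orange and Vehicle in blue, with 95% counting intervals. Points of the 2 libraries nearly coincide in macrophages and epithelial cells, and the mt-Nd genes separate in neutrophils.

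Between the treatment groups, nuclear complex I in macrophages was at nearly the same summed level. The sums were 7831 CPM in CEP and 7809 CPM in Vehicle, a log2 ratio of 0.0041 (-0.0024 to 0.011). A gene was counted as higher or lower where its log2 ratio was at least 0.32 in either direction, and 0 of 36 members were higher and 0 lower by this fold, beside 9.08% and 4.69% of all genes. Single members still differed beyond counting error, 7 higher and 12 lower in CEP by an interval without 0, beside 21.1% and 14.3% of all genes. Measured members held from 1267 UMIs (Ndufs1 in CEP) to 25510 (Ndufa6 in Vehicle), while all genes entered from 50 UMIs over both libraries. Deeper counts give narrower intervals and less scatter of ratios. In each class, shares of all genes between groups were not matched for depth, so a gap from the members is not a result about them. Ndufa1 was the highest, at 262 CPM in CEP and 224 CPM in Vehicle, a log2 ratio of 0.23 (0.19 to 0.27). Ndufa3 (0.16), Ndufv3 (0.11), Ndufa2 (0.092) and Ndufs7 (0.067) followed. Ndufa9 was the lowest, at 56.3 CPM in CEP and 66.9 CPM in Vehicle (-0.25, -0.32 to -0.17), followed by Ndufs4, an N-module subunit, (-0.20), Ndufs8 (-0.12), Ndufv1 (-0.10) and Ndufa12 (-0.095). The 3 N-module core genes all had lower values in CEP and summed to 269.6 CPM in CEP and 287 CPM in Vehicle (-0.090, -0.13 to -0.055). The accessory subunits of the N module (0.022, 0.0093 to 0.035) and of the proximal membrane arm (0.025, 0.012 to 0.038) summed slightly higher, those of the Q module lower (-0.074, -0.12 to -0.028), and those of the distal arm had an interval that held 0. Small differences between cell states within the gate and between libraries were not tested.

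Epithelial cells gave a similar picture from 780 CEP and 111 Vehicle cells. The sums were 7394 CPM in CEP and 7578 CPM in Vehicle, a log2 ratio of -0.035 (-0.055 to -0.016), and again 0 members passed that fold in either direction, beside 10.7% and 13.2% of all genes. Ndufa1 was at 113 CPM in CEP and 92.4 CPM in Vehicle (0.28, 0.11 to 0.46) and Ndufb8 at 304 and 283 CPM (0.10), the 2 members with an interval above 0, beside 8.25% of all genes. Ndufa9 was at 41.5 CPM in CEP and 49.5 CPM in Vehicle (-0.26, -0.50 to -0.0016), and Ndufb2 (-0.19), Ndufb9 (-0.15), Ndufa13 (-0.12) and Ndufv2 (-0.12) were also lower, 5 members with an interval below 0 beside 9.32% of all genes. The core subunits Ndufs1, Ndufs3, Ndufs7, Ndufs8 and Ndufv1 ranged from -0.13 for Ndufs3 to 0.086 for Ndufs1, with intervals that held 0. Ndufa1 was thus the highest and Ndufa9 the lowest member in both macrophages and epithelial cells.

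In neutrophils the outcome depended on the gate. With the wider gate the members summed to 3698 CPM in CEP and 3212 CPM in Vehicle, a log2 ratio of 0.20 (0.17 to 0.23), and 12 of 36 were past the fold higher, beside 31.4% of all genes, and 0 lower, beside 8.14%. Ndufa12 was at 59.1 CPM in CEP and 31.3 CPM in Vehicle (0.91, 0.63 to 1.20), followed by Ndufc2 (0.61), Ndufa4 (0.54) and Ndufa5 (0.46). The share of members was near that of all genes. Among the core subunits, Ndufs1 had a log2 ratio of 0.16 and Ndufs8 of 0.32, and under the stricter gate Ndufs8 had -0.048 and Ndufv2 -0.20, both with intervals that held 0. With the stricter gate the sum was 2451 CPM in CEP and 2544 CPM in Vehicle, a log2 ratio of -0.054 (-0.097 to -0.012), and 1 member, Ndufa12, was past the fold higher and 2, Ndufa5 and Ndufa10, lower, beside 9.92% and 11.2%. Ndufa12 then stood at 81 and 87 UMIs (0.40, -0.054 to 0.85), Ndufa4 at 62.9 and 64.1 (-0.027) and Ndufa5, from 18 and 47 UMIs, at 5.87 and 10.8 (-0.86, -1.75 to -0.070). The stricter gate limits keratin and collagen UMIs, so epithelial, fibroblast and mural markers fell with it by design. The epithelial markers then summed to 14.3 CPM in CEP and 7.59 CPM in Vehicle neutrophils. The part of cells with such markers in the wider-gate difference was not tested. The stricter gate set several limits at once, so its effect cannot be assigned to any of them.

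**Figure D3:**
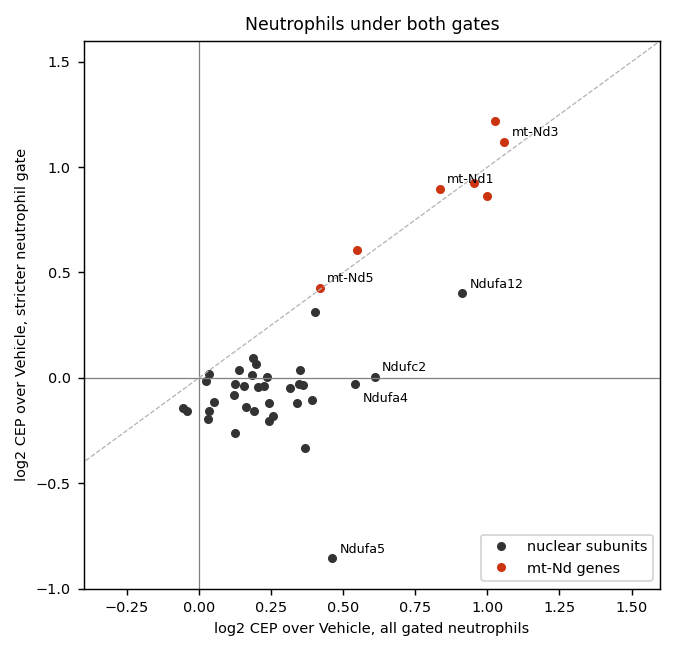
Log2 ratio of CPM, CEP over Vehicle, for 35 nuclear members (black) and each mt-Nd gene (red) in neutrophils under the wider gate (x axis) and the stricter gate (y axis), with the dashed line at equality. The 35 nuclear members lie below the dashed line, some of them below 0 under the stricter gate, and the 7 mt-Nd genes lie near it.

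In T cells the members summed to 7066 CPM in CEP and 6274 CPM in Vehicle (0.17, 0.12 to 0.22), and under the stricter gate to 7637 CPM in CEP and 7165 CPM in Vehicle (0.092, 0.037 to 0.15). Past the fold higher were 5 of 36 (Ndufa3, Ndufa5, Ndufa12, Ndufc1 and Ndufv1), beside 17.3% of all genes, and 0 were lower, beside 16.9%; under the stricter gate the counts were 3 (Ndufa1, Ndufc1 and Ndufv1) and 0, beside 15.2% and 18.8%. Ndufv1 was at 91.2 CPM in CEP and 63.2 CPM in Vehicle (0.53, 0.035 to 1.03), and 0.49 with an interval of -0.039 to 1.04 under the stricter gate. Ndufa3 (0.33), Ndufb9 (0.31), Ndufa1 (0.31) and Ndufa11 (0.29) also had intervals above 0, which makes 5 members beside 9.38% of all genes, and 0 had intervals below 0, beside 7.88%. The core subunits Ndufs1, Ndufs3, Ndufs7, Ndufv2 and Ndufs8 ranged from -0.040 for Ndufs1 to 0.28 for Ndufs8 with intervals that held 0. Under the stricter gate Ndufa1, at 273 and 214 CPM (0.35, 0.042 to 0.67), was the 1 member with an interval above 0, beside 7.46% of all genes, and 0 members were below, beside 7.41%. The 8 macrophage genes were also higher in stricter-gate CEP T cells, at 986 CPM against 523, and their part in the result was not tested.

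**Figure D4:**
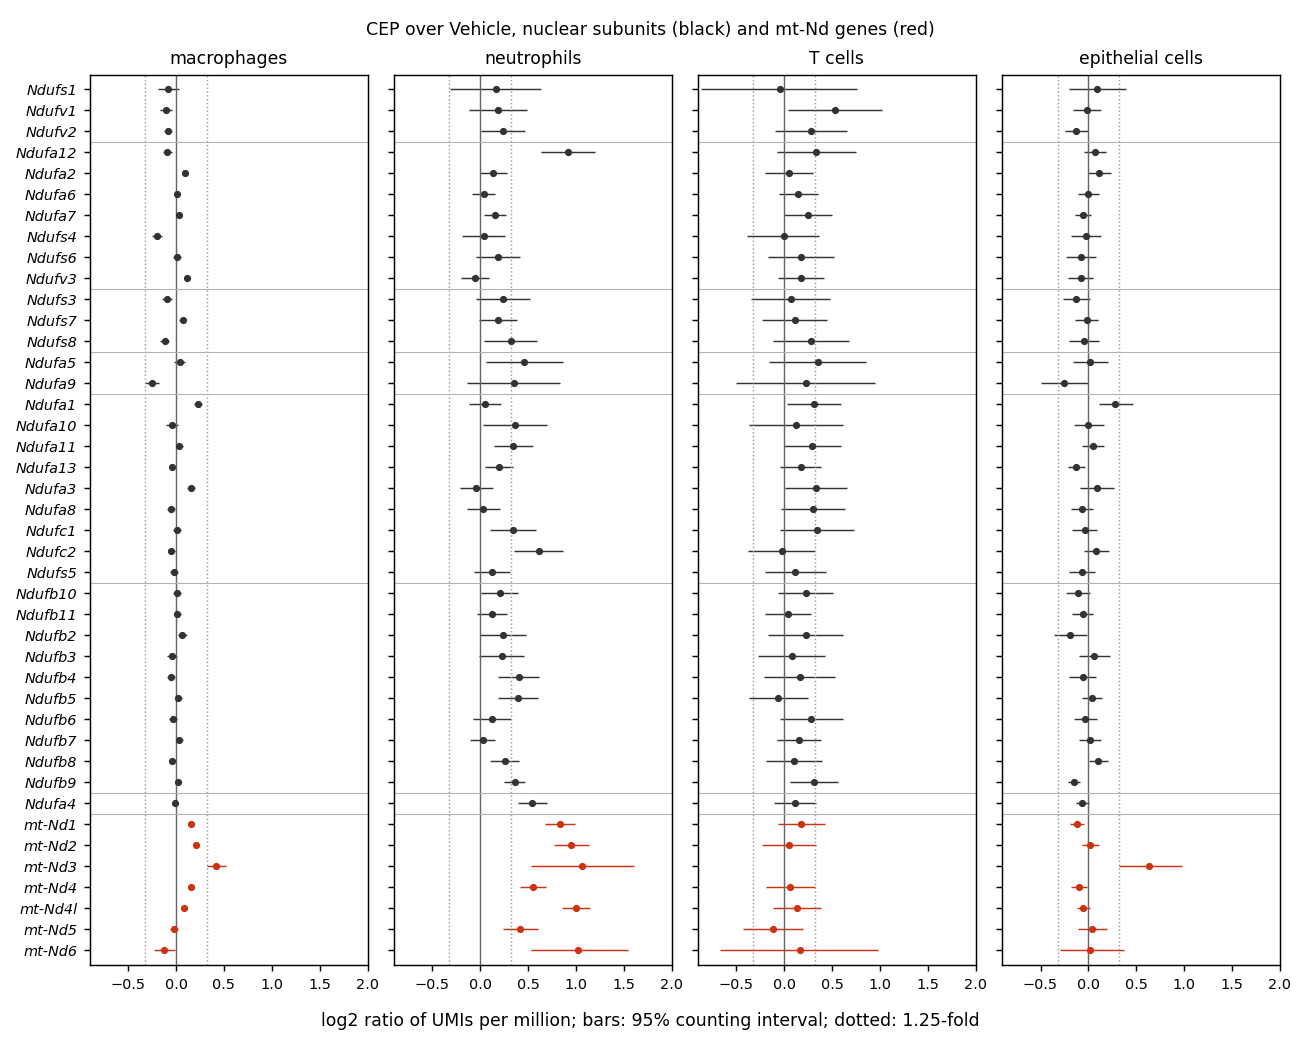
Log2 ratio of CPM, CEP over Vehicle, for 35 nuclear members (black) and the mt-Nd genes (red) in 4 classes under the wider gates, with 95% counting intervals and dotted lines at the fold of 0.32 (log2). Nuclear members of macrophages and epithelial cells lie within the dotted lines, and neutrophil mt-Nd genes lie above them.

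The mitochondrially encoded subunits went apart from the nuclear ones in neutrophils. The 7 mt-Nd genes summed to 903 CPM in CEP and 531 CPM in Vehicle, a log2 ratio of 0.77 (0.70 to 0.84), and to 628 CPM in CEP and 373 CPM in Vehicle under the stricter gate (0.75, 0.65 to 0.85). All 7 were past the fold higher under both gates, mt-Nd5 by the least, beside 31.4% of all genes under the wider and 9.92% under the stricter gate. mt-Nd1 was at 118 CPM in CEP and 63.4 CPM in Vehicle under the stricter gate (0.90), mt-Nd2 at 98.1 and 51.7 (0.92) and mt-Nd4 at 171 and 112 (0.61). mt-Nd5 had a ratio of 0.43, and the sparse mt-Nd3 and mt-Nd6 (1.12 and 1.22) had wide intervals. mt-Nd4l had 0.86. The mt-Nd UMIs per nuclear complex I UMI were 0.256 in CEP and 0.147 in Vehicle neutrophils, against 0.248 and 0.228 in macrophages and 0.276 and 0.278 in epithelial cells.

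Other mitochondrial transcripts were also higher in CEP neutrophils. The other 6 mitochondrial mRNAs had a log2 ratio of 0.50 in stricter-gate neutrophils, from 0.26 for mt-Co1 to 1.08 for mt-Cytb. A high mitochondrial share is a common sign of damaged cells, but it includes the mt-Nd UMIs themselves, so a split of cells by it is a description and not a test of the mt-Nd difference. By this split 13 CEP and 4 Vehicle stricter-gate neutrophils with 5 to 15% mitochondrial UMIs held 24.9% and 7.15% of the mt-Nd UMIs of their class. Without them the mt-Nd log2 ratio was 0.46 (0.35 to 0.56) and the nuclear ratio -0.051. In cells with up to 1% mitochondrial UMIs, 1315 in CEP and 1719 in Vehicle, the mt-Nd level was 361 and 299 CPM, and the nuclear level 2401 and 2544 CPM. The part of damage in this result was not tested.

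Elsewhere the mt-Nd genes differed less. In macrophages they summed to 1943 CPM in CEP and 1779 CPM in Vehicle (0.13, 0.11 to 0.14), with mt-Nd3 the highest (0.42), mt-Nd1 at 0.16, mt-Nd2 at 0.21, mt-Nd4 at 0.16, mt-Nd4l at 0.082, mt-Nd5 at -0.023 and mt-Nd6 at -0.12. Mitochondrial UMIs as a whole were 1.28% of CEP and 1.11% of Vehicle macrophage UMIs. In T cells the mt-Nd ratio was 0.095 (-0.020 to 0.21), and -0.057 (-0.18 to 0.066) under the stricter gate. In epithelial cells it was -0.046 (-0.083 to -0.0083). There mt-Nd3 at 0.64 was the 1 mt-Nd gene past the fold, beside 10.7% of all genes higher and 13.2% lower.

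Cell by cell, after each cell was thinned to 1000 UMIs, nuclear members were found in nearly all macrophages and in most neutrophils. At least 1 nuclear UMI was present in 99.9% of CEP and 99.8% of Vehicle macrophages, and in 83.7% and 85.1% of stricter-gate neutrophils (92.1% and 94.4% before thinning). The mean was 7.82 and 7.77 nuclear UMIs per thinned macrophage and 2.27 and 2.48 per neutrophil, so the lower neutrophil level was spread over the cells. At least 1 mt-Nd UMI was present in 31.1% (28.5 to 33.8) of CEP and 25.8% (23.7 to 28.0) of Vehicle neutrophils (46.5% and 41.9% before thinning), with 0.640 and 0.389 UMIs per cell. Intervals are exact binomial (Clopper-Pearson) over the cells of 1 library. Cells are not replicates of a group, so these intervals do not measure the difference between CEP and Vehicle. Left out were 204 and 171 neutrophils with under 1000 UMIs. Ndufb9 was seen in 19.2% and 20.3% of neutrophils and 52.3% and 56.8% of epithelial cells, and Ndufc2 in 1.33% and 1.43% of neutrophils and 21.8% and 22.7% of macrophages.

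**Figure D5:**
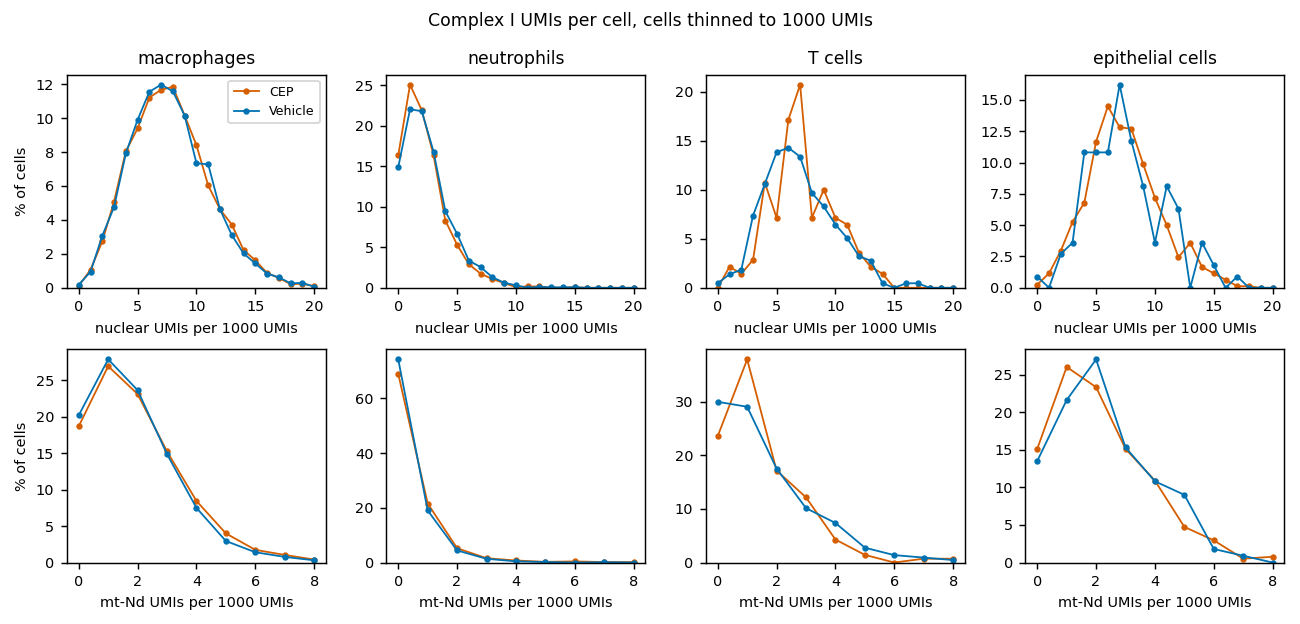
Share of cells (y axis) by number of nuclear complex I UMIs (top) and mt-Nd UMIs (bottom) per 1000 UMIs (x axis) in 4 classes, CEP in orange and Vehicle in blue, neutrophils and T cells under the stricter gates. Neutrophil cells crowd at low nuclear counts in both libraries.

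Genes that build complex I or belong to the other respiratory complexes had summed levels below macrophages in neutrophils. Under the stricter gate the median log2 ratio of all genes tested was -1.25 in CEP and -1.21 in Vehicle. These genes passed the minimum described above, which favours genes high in macrophages. The 16 assembly factors found of a list of 17, such as Ndufaf1 and Acad9, had a summed log2 ratio to macrophages of -1.63 and -1.63 in stricter-gate neutrophils. Nuclear genes of complex II had -1.23 and -1.30, complex III -1.67 and -1.63, complex IV -1.33 and -1.30, and complex V, the ATP synthase, -1.83 and -1.83, beside -1.68 and -1.62 for the members. These are ratios of sums, which are not the same measure as a median over genes. The median over the genes of complex II was -1.19 and -1.30, near that of all genes. For complex IV it was -1.49 and -1.47, for complex III -1.81 and -1.83 and for complex V -1.87 and -1.95, all lower. For the assembly factors the median was lower still, at -1.98 and -2.20, and for the members it was -1.86 in both libraries. Between CEP and Vehicle macrophages, 0 of 16 assembly factors, 0 of 4, 9, 11 and 15 genes of complexes II to V and 0 of 14 measured regulators, such as Nrf1, Gabpa and Tfam, passed the fold in either direction, beside 9.08% of all genes higher and 4.69% lower. In wider-gate neutrophils, where 31.4% of all genes were past the fold higher, 4 of 8 measured assembly factors (Tmem70, Ndufaf1, Ndufaf4 and Foxred1) were. There 0 of 4 complex II genes, 2 of 9 of complex III (Uqcrc1 and Uqcrb), 2 of 11 of complex IV (Cox7c and Cox6c), 7 of 15 of complex V, such as Atp5b of the catalytic part, and 2 of 9 regulators (Tfam and Slirp) were higher. Lower there, beside 8.14% of all genes, were 2 regulators (Gabpb1 and Mterf1a) and 0 genes of the other lists. In stricter-gate neutrophils 0 of the 9 complex III, 11 complex IV and 15 complex V genes passed the fold in either direction, beside 9.92% of all genes higher and 11.2% lower. Measured there were 4 assembly factors, 4 complex II genes and 6 regulators. Sdhc, a membrane subunit of complex II, was lower there with 52 and 102 UMIs (-0.46, -0.98 to 0.027). Tmem70, from 18 and 35 UMIs (-0.44, -1.36 to 0.40), and Gabpb1 (-0.39, -0.82 to 0.018) were also lower, with intervals that held 0. Slirp, which steadies mitochondrial mRNAs, was higher with 32 and 25 UMIs (0.85, 0.059 to 1.68).

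Ndufa4l2, a paralog of Ndufa4 known to be induced by hypoxia and found in pericytes, had its UMIs in few cells. It had 112 UMIs in CEP and 73 in Vehicle, of which 108 and 71 lay in cells with 10 or more UMIs of the collagen genes Col1a1, Col1a2 and Col3a1 (15 of 47 such cells in CEP and 6 of 19 in Vehicle). The gates overlap with these cells: macrophages held 5 and 13 of its UMIs (in 5 and 2 cells), neutrophils 1 and 0, epithelial cells 2 and 0, and gated T cells 0 and 17, the latter in 2 cells that the stricter gate removed. These counts were under the minimum of 50 UMIs in every class, and no ratio is given for them here.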

How the data were processed

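The deposited files hold raw UMI counts per gene and cell barcode for each of 2 libraries, made by droplet sequencing of transcript 3′ ends. The counts were made with Cell Ranger, version 5.0.1 per the submitters' processing notes and 7.1.0 per the file headers, on the mouse build mm10. The sources used here do not state the setting for intronic reads, which could raise genes with long introns or overlapping neighbours. Barcodes with under 200 genes or over 15% mitochondrial UMIs were removed (77 in CEP and 57 in Vehicle). Scrublet's automatic threshold marked 1 barcode in each library, so the 8% with the highest doublet scores were removed instead (702 and 778).

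UMIs were summed over the cells of a class and divided by the class total (CPM), and ratios were taken with 0.5 UMI added to each sum. Intervals of ratios are exact conditional binomial (Clopper-Pearson, 95%). Between groups, members and genes were compared where both libraries together held 50 or more UMIs in the class. Between classes, the class and the macrophages of a library together had to hold 50 or more. A member or gene counted as higher or lower past 0.32 on the log2 scale between groups and 2-fold between classes. Named members are the 5 highest and 5 lowest with an interval without 0 between groups, the 5 highest and 5 lowest ratios between classes, and nuclear core subunits; 1 member is part of the sums and counts but is not reported here on its own. Members and gene lists were chosen with earlier results of these data known. Of the 12 alternatives, 4 were chosen after seeing the data, the stricter gates among them. The counting and ratio steps were tested on simulated data. The software was Python 3.11.15 with scanpy 1.11.5, pandas 2.3.3, matplotlib 3.10.9, scipy 1.17.1 and numpy 2.4.6.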

Additional observations from a re-analysis of the deposited data

Results flagged for a closer look

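The CEP over Vehicle difference was unlike between classes in 4 pairs, none of which could be tested with 1 library per group. The nuclear complex I log2 ratio exceeded that of epithelial cells by 0.239 in neutrophils and by 0.207 in T cells, both with the wider gates. The mt-Nd log2 ratio was 0.172 higher in macrophages and 0.812 higher in neutrophils than in epithelial cells. The nuclear ratio of neutrophils was -0.054 under the stricter gate, so its distance from epithelial cells rests on the wider gate.

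Ndufa4l2, which was measured in none of the compared classes, had 108 UMIs in CEP and 71 in Vehicle in collagen-positive cells. Some of these cells also lay in the gated classes, and no comparison used them as a class of their own.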

How the results depend on the processing

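With 1 library per group, p-values and standard errors are absent, and leaving out a replicate was not run. No paired analysis was possible because each group has 1 library. Values below are log2 ratios or counts of members past 0.32 (log2) between groups, and the cause of a change was not tested. Apart from the stricter gates alone, the share of all genes past the fold is not given for these settings. In neutrophils the share higher was 31.4% under the wider and 9.92% under the stricter gate. Counts of members without that share are therefore not a result about the members. Using the UMI total without mitochondrial UMIs left all 22 main results and 80 single-gene results within their intervals, and a minimum of 20 UMIs left all 8 counts unchanged to within 1.5 times.

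Keeping doublets gave neutrophil over macrophage ratios of -0.99 in CEP and -1.21 in Vehicle. A mitochondrial limit of 10% gave a neutrophil mt-Nd ratio of 0.67, and a limit of 5% gave 0.63. Doubled gates gave a nuclear ratio of 0.037 in neutrophils, ratios to macrophages of -1.38 and -1.41 for neutrophils and -0.042 and -0.16 for T cells, and 4 neutrophil and 3 T cell members higher in CEP. Cells in exactly 1 gate gave 0.018 for nuclear and 0.52 for mt-Nd genes in neutrophils, ratios to macrophages of -1.30 and -1.32 for neutrophils and -0.029 and -0.15 for T cells, and 2 neutrophil members higher.

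The stricter gates gave nuclear ratios of -0.054 in neutrophils and 0.092 in T cells, an mt-Nd ratio of -0.057 in T cells, ratios to macrophages of -1.68 and -1.62 for neutrophils and -0.036 and -0.12 for T cells, and 1 neutrophil member higher, 2 lower and 3 T cell members higher. Ndufa4 in neutrophils reversed to -0.027 and Ndufa5 to -0.86. Adding a mitochondrial limit of 5% gave nuclear ratios of -0.051 and 0.092, mt-Nd ratios of 0.46 in neutrophils and -0.12 in T cells, ratios to macrophages of -1.67 and -1.62 and of -0.035 and -0.12, 2 neutrophil members higher, 2 lower and 3 T cell members higher, with Ndufa4 at -0.023 and Ndufa5 at -0.85.

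The mean of each cell's CPM, which weights shallow cells equally, gave nuclear ratios of -0.028 in neutrophils, 0.039 in T cells and -0.010 in epithelial cells, and mt-Nd ratios of 0.66 in neutrophils and -0.00022 in epithelial cells. Ratios to macrophages were then -1.50 and -1.46 for neutrophils, -0.23 and -0.26 for T cells and -0.092 and -0.077 for epithelial cells, with 1 neutrophil member higher and 4 T cell members lower. Ndufa4 was -0.0028 and Ndufa5 -0.29 in neutrophils. Without a UMI minimum 1 member was lower in macrophages, 1 in T cells and 1 in epithelial cells, Ndufa4l2 in each, from few UMIs and dependent on the 0.5 UMI added. Without Ndufa4 and Ndufa4l2 the epithelial ratios to macrophages were -0.14 and -0.11.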
